A study of Mus musculus with 14 samples.

Results

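The cells described here were MIN6-Sir2KD1, the first of 2 Sirt1 knockdown lines made from MIN6, a mouse line of pancreatic beta cells that secretes insulin. The arrays were chosen by their titles: all 3 on which Sir2KD1 RNA was hybridised against RNA of the empty-vector line mU6pro, of 14 arrays in the series. Every probe of the deposited value table was used. The second knockdown line, Sir2KD2, was measured on 4 arrays against the same mU6pro RNA. The other 7 arrays held the Sirt1-overexpressing lines Sir2OE1 (3) and Sir2OE2 (4), made with a pBabe-Sirt1 retrovirus, grown under 280 micrograms/ml of G418 and compared with a pool of RNA from Neo1 and Neo2, which carry the virus without Sirt1. They entered the estimate of the spread between arrays. Both knockdown lines came from MIN6 cells of passage 24 that received plasmids for 2 different small interfering RNAs against Sirt1, each in the mU6pro vector, together with a neomycin-resistance plasmid, and were kept under 400 micrograms/ml of G418. The line mU6pro was made with that vector. Each line was held at 5 mM glucose for the 4 days before its RNA was extracted. The labels do not say whether a line is 1 clone or a pool of cells, and they give no small interfering RNA sequence. The control was a single line, so its own spread is not part of any error, and nothing ties the slides of Sir2KD1 to separate cultures, so a p-value reflects how far arrays scatter, possibly for technical reasons alone.

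Sirt1 is an NAD-dependent enzyme that removes acetyl groups from histones and from transcription factors such as p53 and the FoxO proteins. In beta cells it is known for its part in insulin secretion. Beta cells hold their identity through a network of transcription factors, among them Pdx1, Neurod1, Nkx2-2, Isl1 and Hnf4a, and take up glucose in the mouse through the transporter Slc2a2 (GLUT2). The comparison asks which transcripts differed between Sir2KD1 and the vector line, and which of these differed from Sir2KD2 as well.

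A value here is the log2 ratio of the 2 channels of an array, turned so that all arrays of a line run the same way. The line was in channel 2 on slide 1 and in channel 1 on slides 2 and 3. No source used here states which channel is on top of the deposited ratio, so values lie on a plus or a minus side. If the ratio is channel 2 over channel 1, plus means more RNA in Sir2KD1 and minus means less. If it is the reverse, both sides exchange. As deposited, slide 2 had r = -0.15 with slide 1 (opposite channels) and r = 0.25 with slide 3 (same channels) over all probes. Probes are not replicates. The part of the signal that turns with the channels correlated at r = 0.15 between the first and last probe of 1025 genes with several probes. The part that stays with the channel had r = -0.02. Slide values keep the centring per probe of the deposited table, which shifts slide 1 one way and slides 2 and 3 the other, whereas the estimates do not depend on it. Ratios carry no level, so they do not show whether beta-cell markers were present at all, nor whether a change came from fewer cells of a kind or from less RNA per cell.

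The probe named Sirt1 did not differ from the vector line beyond its spread. Its values on slides 1 to 3 of Sir2KD1 were -0.12, -0.21 and 0.03, an estimate of -0.10 ± 0.12 (SE, n = 3 arrays) with limma adjusted p = 0.772. In Sir2KD2 the 4 arrays read 0.22, 0.10, 0.10 and 0.07. Neither line thus shows its knockdown at this probe. Its place in the transcript is unknown here, so the target gene does not check the labels. The mitochondrial sirtuins Sirt3, Sirt4 and Sirt5, the cytosolic Sirt2, the nuclear Sirt6 and Nampt, the enzyme that recycles nicotinamide into NAD, were not called either, at estimates from -0.26 (Nampt) to 0.86 (Sirt4, with slide values of 0.48, 1.86 and 0.39).

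Of 23230 probes tested, 833 were called in Sir2KD1 at an adjusted p under 0.05 (3.59%), 372 of them plus (1.6%) and 461 minus (1.98%). In each of the 833, all 3 arrays lay on the side of the estimate, as centred in the deposited table. The calls were made from these same arrays, so this is a description and no separate evidence. The same fit called 312 probes in Sir2KD2 (1.34%). The median size of the called log2 ratios was 1.05 and the smallest 0.45, and 447 calls (1.92%) reached a log2 ratio of 1 in size, 211 plus (0.908%) and 236 minus (1.02%). Of the calls, 683 came from probes with a single gene symbol. Without slide 1 of Sir2KD1 the count was 523, without slide 2 it was 541 and without slide 3 it was 547. Of these, 262, 421 and 420 were among the 833. Fitted on the 7 knockdown arrays alone, the count was 219, with 207 of them among the 833.

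Genes of the Serpina1 family held 4 of the 6 largest minus-side values in Sir2KD1. They encode the mouse forms of alpha-1-antitrypsin, a protease inhibitor secreted mainly by the liver, and lie side by side in the genome. Serpina1b read -4.46, -6.09 and -4.52 on slides 1 to 3, a 31.4-fold difference (log2 -4.97 ± 0.27, SE, adjusted p = 4.48e-06). Serpina1e read -3.82, -4.49 and -4.50. Serpina1c read -3.82, -4.24 and -4.34. These genes are close copies of each other, and Serpina1a (-3.78, -3.49 and -4.63) and Serpina1d (-2.55, -3.82 and -2.50) completed the set of 5, all of them called. Probe sequences were not used here, so a probe may have bound RNA of several copies, and the 5 values are not independent. Sir2KD2 lay on the same side for all of them, at -3.44, -3.89, -3.37, -3.34 and -3.34 for Serpina1b, 1e, 1c, 1a and 1d, and the difference between the lines was not called for any (adjusted p from 0.0926 to 0.638). Apart from the centring, values on the knockdown arrays came from ratios in whole percents, so low ratios move in coarse steps. The lowest percent on these arrays was 4 for Serpina1b, 5 for Serpina1e and 8 for Serpina1c and Serpina1a.

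The copies share sequence just before their start sites, shown here from RefSeq (GRCm38.p6, minus strand of chromosome 12). The longest unbroken stretch that all 5 share is in capitals, and some of the other bases are shared too. They lie at chr12:103863625-103863715, chr12:103738200-103738290, chr12:103904962-103905052, chr12:103773634-103773724 and chr12:103956960-103957050, in the order of the lines.
Serpina1a: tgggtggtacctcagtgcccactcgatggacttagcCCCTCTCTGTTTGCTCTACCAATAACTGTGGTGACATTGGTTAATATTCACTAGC
Serpina1b: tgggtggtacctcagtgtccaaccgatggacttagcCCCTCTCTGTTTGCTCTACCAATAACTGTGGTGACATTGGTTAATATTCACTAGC
Serpina1c: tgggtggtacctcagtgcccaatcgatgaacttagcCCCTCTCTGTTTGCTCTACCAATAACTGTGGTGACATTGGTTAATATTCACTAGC
Serpina1d: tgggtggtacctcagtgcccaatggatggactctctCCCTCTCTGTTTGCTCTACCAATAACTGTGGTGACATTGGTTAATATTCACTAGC
Serpina1e: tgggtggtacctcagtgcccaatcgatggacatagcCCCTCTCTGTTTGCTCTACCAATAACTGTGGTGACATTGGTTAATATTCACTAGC
The stretch in capitals is 55 bases long, and over the 91 bases shown any pair was 92.3% to 97.8% identical. The bases shown were chosen around this stretch, which is identical by that choice. The percentages therefore do not measure how alike the copies are elsewhere. Of 32851 promoters in the table, each 250 bases before to 50 after a start, these 5 held the whole stretch.

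Outside this family the largest minus-side values belonged to Dlk1, Tm4sf4, Smim24 and Cartpt, which were called in Sir2KD2 on the same side at smaller values. Dlk1 encodes a membrane protein related to the Notch ligands and is expressed from the paternal copy. It read -3.73, -4.34 and -4.17 in Sir2KD1, a 16.8-fold difference (log2 -4.07 ± 0.15, SE, adjusted p = 8.83e-07), against -0.92, -1.06, -0.95 and -0.59 in Sir2KD2. The lines did not overlap, and their difference was -3.19 ± 0.19 (SE, adjusted p = 0.000176). Tm4sf4, a membrane protein of the 4-transmembrane L6 family, read -3.55, -4.79 and -3.94 against -0.86 as the estimate in Sir2KD2. The small membrane protein Smim24 read -3.71, -3.70 and -3.53, a narrow range, against -0.83. Cartpt, the precursor of the CART neuropeptide, read -3.72, -3.56 and -3.50 against -0.90. The lowest percents on the knockdown arrays were 8 for Dlk1 and Smim24, 9 for Tm4sf4 and 7 for Cartpt. The difference between the lines was called for all 4 genes whichever of the 14 arrays was left out. With the 7 knockdown arrays alone it was called for Smim24 (adjusted p = 0.0436) and for none of the other 3.

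Sult1d1, 1700109G15Rik, Mmd2 and Eps8 completed the 12 largest on the minus side. The sulfotransferase Sult1d1 read -3.61, -2.83 and -3.77, and 1700109G15Rik read -3.19, -2.89 and -4.11. Both were also called in Sir2KD2, at -2.21 and -1.61, with no called difference between the lines (adjusted p = 0.181 and 0.15). Mmd2, a membrane protein of the progestin and adipoQ receptor family, and Eps8, which binds and caps actin filaments, stood apart from these: they read -3.56, -2.77 and -3.62, and -3.44, -3.21 and -2.61, while Sir2KD2 lay at -0.37 and -0.15 and was not called.

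On the plus side, Fnbp1l, Sod3, Csn3 and Ucn3 were called in Sir2KD2 on the same side. Fnbp1l, which joins membranes to actin assembly, read 3.90, 3.82 and 3.16, a 12.3-fold difference (log2 3.62 ± 0.31, SE, adjusted p = 0.000119), and was at 3.31 in Sir2KD2. Sod3, the extracellular superoxide dismutase, read 2.81, 2.63 and 2.87, against 2.28 in Sir2KD2. Csn3, a milk casein, read 2.78, 2.95 and 2.61, against 1.82, and its difference between the lines was called at 0.95 (adjusted p = 0.0440), a call lost on leaving out any 1 array. The peptide hormone Ucn3 illustrates a limit of single probes. The probe with the largest value read 2.78, 2.96 and 2.86 in Sir2KD1 and was at 2.62 in Sir2KD2, but the other Ucn3 probe lay on the minus side at -0.95 and was not called (adjusted p = 0.0628). The gene's direction is therefore uncertain.

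The other plus-side leaders were not called in Sir2KD2, or were called there on the opposite side. Hspb8, a small heat shock protein, read 2.71, 3.00 and 2.66, and Mucl2, a mucin-like protein, read 2.40, 2.63 and 2.21. Napsa, an aspartic protease, read 3.23, 3.08 and 2.03. Their arrays did not overlap with those of Sir2KD2, which lay at 0.72 and 0.58 for Hspb8 and Mucl2 and at -0.97 for Napsa. Lypd3, a surface protein with a lipid anchor, owed its place to 1 array: slide 1 read 5.90, slides 2 and 3 read 2.53 and 2.20, and without slide 1 the estimate was 1.44 and not called (adjusted p = 0.136). The RNA helicase Dhx33 (2.73, 2.62 and 2.31) and Bmper, a binding protein of bone morphogenetic proteins (2.64, 2.00 and 2.81), also lost their calls without slide 1 (adjusted p = 0.0731 and 0.123), and Bmper without slide 3 (0.0771). The difference from Sir2KD2 was not called for Lypd3, Dhx33 or Bmper (adjusted p = 0.169, 0.0766 and 0.181), so these genes are not shown to differ between the lines. A second Dhx33 probe was at 0.08, but it is 1 of 173 probes that share a fixed set of ratios on most knockdown arrays and is not read as a value of the gene. Sfrp5, an inhibitor of Wnt signalling, and 4930535L15Rik made up the 12 and are described with the probe numbers further on.

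**Figure D1:**
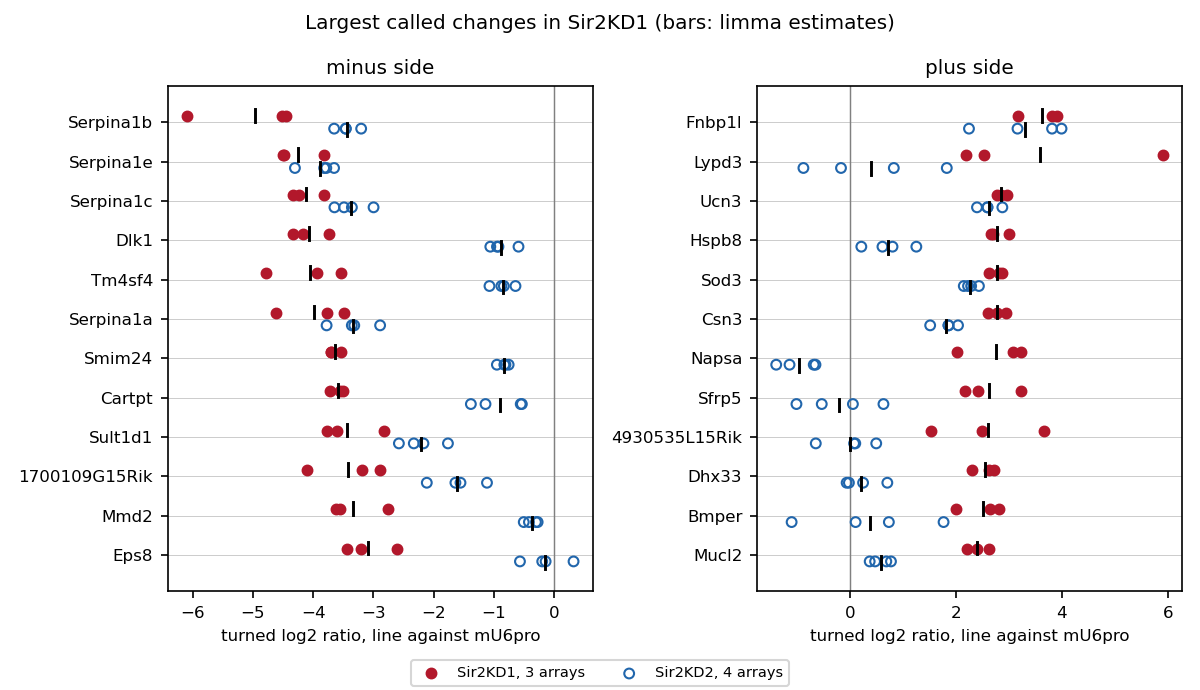
Turned log2 ratios (horizontal axis) of the 12 genes on each side with the largest called values in Sir2KD1, 1 row per gene; filled points are the 3 Sir2KD1 arrays, open points the 4 Sir2KD2 arrays, and short bars the limma estimates. The Serpina1 genes, Fnbp1l, Ucn3 and Sod3 have both lines far from 0, while Dlk1, Tm4sf4, Smim24, Cartpt, Mmd2 and Eps8 have estimates of -3.08 or below in Sir2KD1 and between -0.90 and -0.15 in Sir2KD2.

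Set against the second line, the 833 calls divided as follows. In 153 the probe was called in Sir2KD2 on the same side and in 3 on the opposite side, a comparison in which both lines share the mU6pro control. The remaining 677 were not called in Sir2KD2, but in 566 of these the difference between the lines was not called either, so they are not shown to be particular to Sir2KD1. In 111 (0.478% of the probes tested) the difference was called, 46 plus (0.198%) and 65 minus (0.28%). The difference between the lines, in which the shared control cancels, was called for 160 probes in all (0.689%). The count of 111 moved with single arrays. It was 185 without slide 1 of Sir2KD1, 64, 64 and 60 without slides 1, 3 and 4 of Sir2KD2, 66 without slide 2 of Sir2OE1, and 58, 61 and 61 without slides 1, 2 and 3 of Sir2OE2. The members changed as well: of the 185 without slide 1 of Sir2KD1, 42 were among the 111. With the 7 knockdown arrays alone the count was 1, and that probe was not among the 111.

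On the minus side, the 12 largest differences from Sir2KD2 among these calls belonged to Ighm, Mmd2, Eps8, Epcam, Iyd, Gatm, Tspan2os, Ccl28, Dapk1, Tmed6, Nrn1 and Gab1. Epcam, the epithelial cell adhesion molecule, read -2.62, -2.04 and -1.87 in Sir2KD1 and 0.80, 0.48, 0.36 and 0.18 in Sir2KD2, so that every array of the lines lay on opposite sides of 0 (difference -2.64 ± 0.22, SE, adjusted p = 0.000606). Iyd, which recovers iodide from iodotyrosines, read -3.11, -2.09 and -2.88, against an estimate of -0.16 in Sir2KD2. Gatm, an enzyme of creatine synthesis, read -3.14, -1.98 and -3.61, against -0.51. Tmed6, a p24-family protein of the secretory pathway, read -2.54, -3.33 and -2.88, against -0.67 (adjusted p = 0.0729).

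Signalling and secreted proteins were among the rest. The chemokine Ccl28 was at -1.91 ± 0.26 (SE, adjusted p = 0.00237) and 0.42 in Sir2KD2. Nrn1, a lipid-anchored protein that promotes neurite growth, read -1.81, -2.70 and -1.68, against 0.11. Gab1, an adaptor that docks to activated receptor tyrosine kinases, read -1.27, -1.41 and -1.61, and all 4 arrays of Sir2KD2 lay on the other side, from 0.40 to 0.76. Tspan2os, a transcript antisense to Tspan2, read -2.48, -1.94 and -1.48, and strand was not considered in matching its probe. The death-associated kinase Dapk1 read -2.55, -2.61 and -1.64, but a second Dapk1 probe was at 0.23 and was not called. A probe named Ighm, an immunoglobulin chain, read -3.03, -0.62 and -1.59 on slides 1 to 3, while its 8 other probes lay between -0.38 and 1.07 and were not called. Without slide 1 this probe was at -0.75 (adjusted p = 0.442). Differences between the lines were called whichever array was left out for Mmd2, Eps8, Epcam, Iyd, Tspan2os, Tmed6, Nrn1 and Gab1. Those of Ighm, Gatm, Ccl28 and Dapk1 were each lost on leaving out at least 1 array, with adjusted p of 0.0849, 0.0511 and 0.0845 for Ighm, Gatm and Dapk1 without slide 1 of Sir2KD1, and 0.0507 for Ccl28 without slide 3 of Sir2KD2.

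The overexpressing lines had some of these genes on the same side, measured against their own Neo control and turned by the same rule. Sir2OE1 had 4 of the 12 minus-side genes called on the minus side and Sir2OE2 had 9, where 1.06% and 2.81% of all probes were called on either side. The fit gives all lines a common spread per probe, and these 12 were chosen as called with it. The shares over all probes are therefore no like measure for them, and the counts are a description. Epcam was at -2.74 ± 0.17 (SE, limma adjusted p = 7.38e-05) in Sir2OE1 and -1.15 ± 0.14 (SE, 0.00144) in Sir2OE2, so it was called in every line but Sir2KD2. Iyd was at -2.14 and -1.12, Tmed6 at -2.33 and -1.94 and the Ighm probe at -3.39 and -2.90 in these lines, all called. Mmd2 (-1.23), Eps8 (-1.20), Tspan2os (-1.18), Gatm (-1.31) and Dapk1 (-1.41) were called in Sir2OE2 and not in Sir2OE1. Ccl28 and Nrn1 were not called in either, and Gab1 was called on the plus side in Sir2OE2, at 0.76. Among the leading genes given earlier, Sod3 kept its side in Sir2OE1 and Sir2OE2, at 2.44 and 4.13. So did Cartpt (-1.48 and -2.40) and Smim24 (-0.93 and -0.68), all of them called. Dlk1 (-1.46 and 1.24) and Csn3 (-0.87 and 0.84) changed side between these lines, all called. Serpina1e (1.13 and 2.06) and Serpina1c (0.95 and 1.82) were called opposite to Sir2KD1. In Sir2OE2 alone, Serpina1b (1.98), Serpina1a (1.90), Fnbp1l (1.58) and Sult1d1 (-1.78) were called. The difference of Sir2KD1 from the overexpressing lines was not tested.

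On the plus side the corresponding 12 were Sfrp5, 4930535L15Rik, Tgfbr2, Kif6, Ntf5, Phip, Tcrb-V8.2, Dcst1, Sntb1, Hspb8, Ccdc71l and 1700029J07Rik. Sntb1, a syntrophin that links membrane proteins to the dystrophin complex, read 1.16, 1.60 and 1.98, against -0.49 in Sir2KD2, and Hspb8 is given with the leading genes. Both differences, 2.06 for each gene, were kept whichever array was left out. Ntf5, a neurotrophin, read 1.98, 0.83 and 1.68, and all 4 arrays of Sir2KD2 lay on the minus side, from -1.41 to -0.60. Its difference was lost without slide 1 of Sir2KD1 (adjusted p = 0.0574). The remaining 9 each lost the difference on leaving out at least 1 array. The kinesin Kif6 was at 1.84, Phip at 1.77, Dcst1 at 1.25, Ccdc71l at 1.36 and 1700029J07Rik at 1.52 in Sir2KD1. Without slide 1 the adjusted p of the difference was 0.065 for Kif6, 0.113 for Dcst1, 0.128 for Ccdc71l and 0.136 for 1700029J07Rik. For Phip it was 0.113 without slide 2 and 0.11 without slide 3. The call in Sir2KD1 itself was lost without slide 1 for Kif6 (adjusted p = 0.0671), Ntf5 (0.159), Dcst1 (0.386), Ccdc71l (0.237) and 1700029J07Rik (0.146), and for Phip without slide 2 (0.075). Both other Phip probes were near 0, at 0.29 and -0.07, and were not called. In each overexpressing line only Hspb8 of these 12 was called on the plus side, at 1.06 in Sir2OE1 and 0.80 in Sir2OE2.

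**Figure D2:**
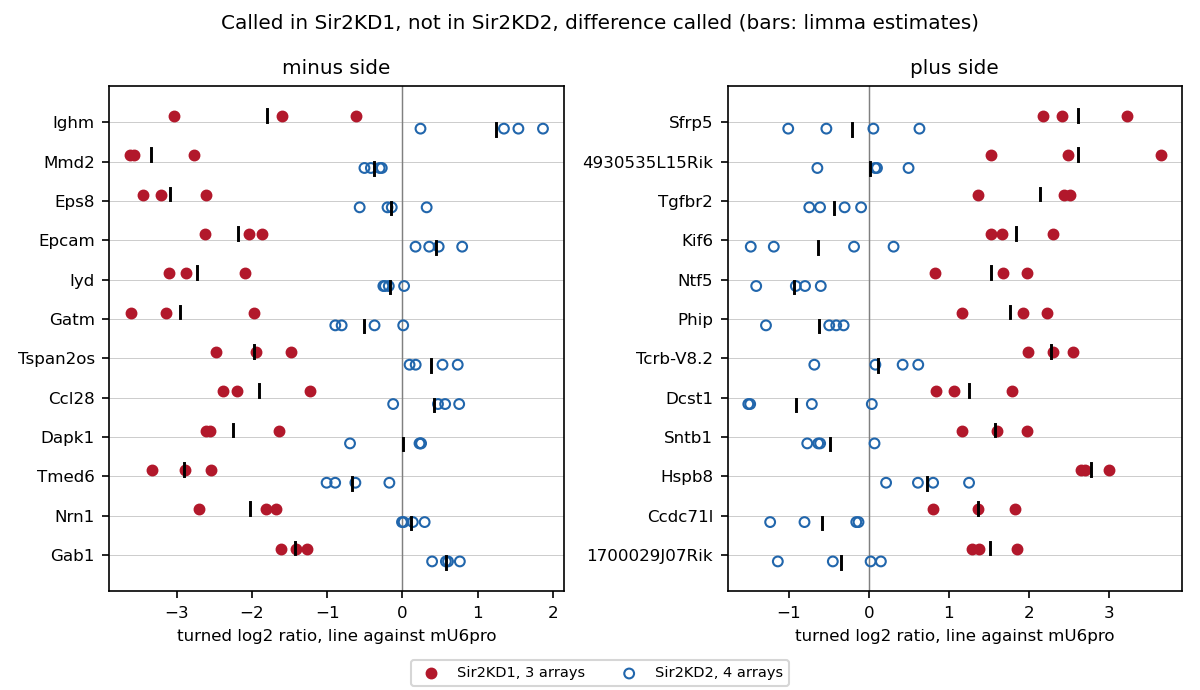
Turned log2 ratios (horizontal axis) of the 12 genes on each side with the largest called difference between the lines among those called in Sir2KD1 and not in Sir2KD2; filled points are the 3 Sir2KD1 arrays, open points the 4 Sir2KD2 arrays, and short bars the limma estimates. The arrays of Epcam and Gab1 lie on opposite sides of 0 in the 2 lines, whereas the Ighm probe spreads from -3.03 to -0.62 over the Sir2KD1 arrays.

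Several of these plus-side probes lay close together by probe number. The probes were divided into 48 blocks of 484 consecutive numbers, a size chosen after the values were seen. Block 28 held 35 plus-side calls (7.23% of its probes, against 1.6% overall) and 3 minus-side calls, while the median block held 6 plus-side and 9 minus-side calls and the next highest held 19 on the plus side. On slide 1 of Sir2KD1 the median of this block was 0.72, against 0.08 and 0.13 on slides 2 and 3. Lypd3, Sfrp5 (2.18, 2.42 and 3.23), 4930535L15Rik (3.66, 1.53 and 2.50), Tgfbr2, the type II receptor of transforming growth factor beta (2.51, 1.36 and 2.44), and Tcrb-V8.2 (2.55, 2.31 and 1.99) came from it. With each array centred within its blocks, an alternative added after seeing the data, these 5 stayed called, at 3.27, 2.30, 2.29, 1.82 and 1.96, and 1100 probes were called in all. The difference of Sfrp5 from Sir2KD2 was then not called, at 2.52 (adjusted p = 0.0634). Without slide 1, Tgfbr2 was not called in Sir2KD1 (adjusted p = 0.0839). Leaving the block out gave 793. The second Tgfbr2 probe, from another block, was at 0.50 and was not called, and 2 of the 151 other Tcrb-V8.2 probes were called. Block 27 held Ntf5, Ccdc71l and 1700029J07Rik, with 12 plus-side calls (2.48% of its probes). Its slide 1 median of 0.14 was the highest after block 28. Ccdc71l and 1700029J07Rik have consecutive probe numbers, 12952 and 12951. The part of the probes' position in these values was not tested beyond this.

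**Figure D3:**
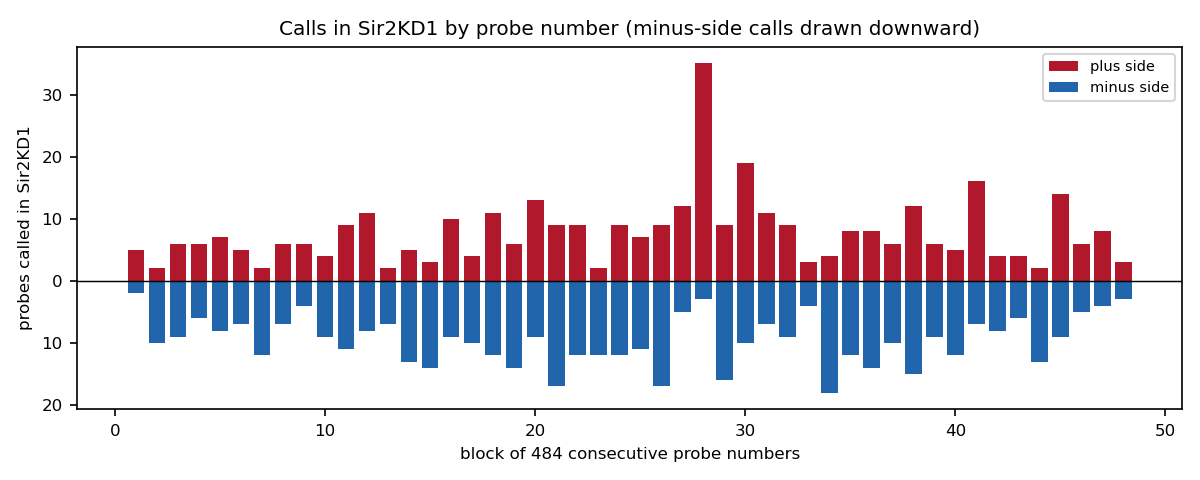
Number of probes called in Sir2KD1 (vertical axis) in 48 blocks of 484 consecutive probe numbers (horizontal axis); bars above 0 are plus-side calls and bars below 0 minus-side calls. Block 28 stands out with 35 plus-side calls, against 19 in the next highest block.

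In both lines, but on opposite sides, 3 probes were called. Napsa was at 2.76 in Sir2KD1 and -0.97 in Sir2KD2, a difference of 3.73 ± 0.31 (SE, adjusted p = 0.000606) with no overlap between arrays. The transcript 4933429K18Rik lay between -1.35 and -0.28 in Sir2KD1 and from 0.71 to 1.14 in Sir2KD2. Its call in Sir2KD1 was lost without slide 1 (adjusted p = 0.193) and without several other arrays, while the difference between the lines, -1.88, was kept whichever array was left out. The third, probe 21511, has no gene symbol in the annotation and was at 0.92 and -1.12. Its call in Sir2KD1 was lost without slide 2 (adjusted p = 0.06) and without slide 3 (0.0803).

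Of the beta-cell identity genes, 6 of 17 measured were called in Sir2KD1, all on the minus side, against 1.98% of all probes on that side, and the median of the 17 was -0.44 against 0.02 over all probes. With the last probe of each gene in place of the first, 5 were called on the minus side and 1 on the plus side (Ucn3), with a median of -0.17. The list of other islet endocrine markers had 0 calls and a median of -0.37, with 7 of its 10 members below 0, and the part of such cells was not tested. The beta-cell list was drawn up with earlier results of these data known, so it is not independent evidence. Slc2a2 read -1.97, -1.95 and -2.29, a 4.22-fold difference (log2 -2.08 ± 0.16, SE, adjusted p = 5.19e-05). In Sir2KD2 it was called at -0.89, and the difference of -1.18 between the lines (adjusted p = 0.0373) was lost without any 1 of 12 of the 14 arrays. The transcription factors Nkx2-2 (-0.87, -1.04 and -0.86), Isl1 (-0.79, -0.78 and -0.78) and Pdx1 (-0.86, -0.74 and -0.70) lay close together between arrays. Neurod1 was at -0.47, and Hnf4a at -1.17 with a second probe at 0.37 that was not called. In Sir2KD2 the same genes were at -0.20, -0.59, -0.50, -0.14 and -0.97, in this order, and none of these differences between the lines was called. Besides Slc2a2, the list held a called difference for Pax4, a developmental transcription factor, named after its values were seen. It read -0.27, -0.42 and -0.52 in Sir2KD1, an estimate of -0.40 that was not called, and 0.78, 0.65, 1.09 and 0.59 in Sir2KD2. Every array of the lines lay on opposite sides of 0 (difference -1.18, adjusted p = 0.016).

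The beta-cell calls were near the limit of what 3 arrays show. Without slide 1 of Sir2KD1, Pdx1 (adjusted p = 0.111), Isl1 (0.0926), Hnf4a (0.0950) and Neurod1 (0.231) were not called, while Slc2a2 and Nkx2-2 still were. Neurod1 also lost its call on leaving out most of the other arrays. The insulin gene Ins2 read -0.33, -0.44 and -0.56 and was not called (adjusted p = 0.244). Nkx6-1 was at 0.37 and Pax6 at -0.20, and neither was called. The probe of Iapp, the amyloid peptide released with insulin, is among the 173 with a fixed set of ratios, so its value is not given, although it counts among the 17. Without it, an alternative added after seeing the data, 6 of 16 were called, with a median of -0.46. Leaving such members out changed the number of calls in none of the 21 lists. Ins1 and Mafa had no probe with a single symbol.

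Genes of the stimulus-secretion machinery mostly did not move together. The counts of this and the following lists stand beside 3.59% of all probes called, 1.6% plus and 1.98% minus. Counts at an unadjusted p under 0.05 stand beside 3897 of all 23230 probes at that limit. A count of 1 or 2 calls is not read as a result about a list. Of 34 insulin secretion genes, 2 were called: Rab3d, a small GTPase of secretory vesicles, at 0.66, and the vesicle calcium sensor Syt5 at -1.04 (-1.05, -0.84 and -1.20). Rab3d lost its call without any 1 of the Sir2KD1 slides (adjusted p from 0.0771 to 0.0902). The 34 include Scg2, Scg5, Chga and Chgb, whose probes are among the 173, and without them the list median was -0.11. With the last probe of each gene there were 3 calls. The third was the calcium channel Cacna1d, whose second probe read -0.51, -1.93 and -1.50, an estimate of -1.28 (adjusted p = 0.0234) against -0.05 in Sir2KD2, while its first was at -0.20 and not called. Glycolysis had 2 of 17 called, both on the plus side, the triose phosphate isomerase Tpi1 at 0.65 and the lactate dehydrogenase Ldha at 0.73. Tpi1 lost its call without any 1 of the Sir2KD1 slides (adjusted p from 0.0715 to 0.221) and Ldha without slide 1 or 2 (0.251 and 0.109). Of 23 uncoupling and mitochondrial regulators, limma called 0, with 3 at an unadjusted p under 0.05, and of 13 sirtuin and NAD genes it called 0, with 0 at an unadjusted p under 0.05.

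Among lists tied to Sirt1's known substrates, at most 2 members of each were called, where 3.59% of all probes were. An unadjusted p under 0.05 was reached by 8 p53 targets, 6 cell cycle genes, 4 FoxO targets and 1 substrate gene. Over all probes, 3897 of 23230 reached it. Of 38 cell cycle genes, 2 were called, both on the minus side. Rbl2, a retinoblastoma-family repressor also on the list of 19 FoxO targets, read -2.51, -2.20 and -2.96 and was at -2.60 in Sir2KD2. Both probes of cyclin D2 (Ccnd2) were called, at -1.51 and -1.19. The other FoxO target called was the mitochondrial superoxide dismutase Sod2, at -0.52. Of 19 p53 targets, Ccng1 was called at 0.74 and Sesn2 at -0.48, and the list held 2 called differences between the lines. The difference between the lines for Ccng1 was 1.39 (adjusted p = 0.0214), since it was at -0.65 in Sir2KD2. It was lost without slide 1 or 2 of Sir2KD1 or slide 1 or 4 of Sir2KD2 (adjusted p from 0.0561 to 0.0776). Of 18 genes of Sirt1 substrate proteins, Foxo1 alone was called, at -0.60. Sod2, Ccng1, Sesn2 and Foxo1 each lost their call in Sir2KD1 without any 1 of its slides (adjusted p from 0.0561 to 0.315).

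Stress lists held a few large values, and their counts again stand beside 3.59% of all probes called. Of 14 cytosolic chaperones, 2 were called, the small heat shock proteins Hspb8 at 2.78 and Cryab at 2.28 (1.26, 2.98 and 2.71). Cryab lost its call without slide 2 or slide 3 (adjusted p = 0.122 and 0.112). Of 21 antioxidant genes, Sod3 was called on the plus side and Sod2 on the minus side. Of 30 genes of the unfolded protein response and amino acid stress, the asparagine synthetase Asns was at 0.61 and the cystine transporter Slc7a11 at -0.69, and each lost its call without any 1 slide of Sir2KD1 (adjusted p from 0.0867 to 0.245). Of 21 genes of sterol and fatty acid synthesis, Dhcr7, the last enzyme of cholesterol synthesis, was called at -0.71, and not without slide 1 or 3 among others (0.223 and 0.173). Another probe of the acetyl-CoA carboxylase Acaca was called at 1.52 (adjusted p = 0.00741) and was at -0.08 in Sir2KD2. Of 20 interferon response genes and 18 regulators of G-protein signalling, limma called 0, with 5 and 3 at an unadjusted p under 0.05. Over all probes, 3897 of 23230 had such a p. With the last probe of each gene, 1 interferon response gene was called, the proteasome subunit Psmb8 at -0.73 (adjusted p = 0.0336), and 7 had an unadjusted p under 0.05. A second probe of Rgs3, a regulator of G-protein signalling, was called at -2.11, and was at -2.15 in Sir2KD2.

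Markers of other cell types were mixed. Of 21 exocrine and duct markers, 4 were called on the minus side and 2 on the plus side, with a list median of 0.03. The minus-side ones were Epcam, the adhesion protein E-cadherin (Cdh1, at -1.98, -1.70 and -1.96), the pancreatic carboxypeptidase Cpb1 (-1.66, -1.44 and -1.21) and trypsinogen Prss1 at -0.75. In Sir2KD2, Cdh1 was at -0.19 and Cpb1 at 0.17. Both differences were called, at -1.70 (adjusted p = 0.00252) and -1.61 (0.0151), and that of Cpb1 was lost without slide 1 of Sir2KD1 (0.0697). The keratin Krt7 and the carbonic anhydrase Car2 were called on the plus side, at 0.93 and 0.92. Prss1 lost its call without any 1 of the Sir2KD1 slides (adjusted p from 0.0726 to 0.178) and Krt7 without slide 1 (0.0714).

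Of 22 neuronal markers, 5 were called, against 3.59% of all probes, with Uchl1 and Stmn2 as plus and Gap43, Ddc and Th as minus. Uchl1, a ubiquitin hydrolase of neurons and endocrine cells, was at 1.26 ± 0.13 (SE), and Stmn2, a regulator of microtubules, at 1.77 ± 0.16 (SE). Neither is shown to be particular to Sir2KD1. Over 25 alternative fits the difference from Sir2KD2 was never called, at -0.59 to -0.44 for Uchl1 and 0.54 to 0.82 for Stmn2. In Sir2KD2, 2 markers of this list were called on the plus side. On the minus side were the growth cone protein Gap43 at -1.37 and enzymes of the dopamine pathway, Ddc (-1.04, -1.53 and -1.21) and Th (-1.49, -0.54 and -1.33). Ddc and Th were at 0.42 and 0.26 in Sir2KD2, with called differences of -1.66 (adjusted p = 0.00431) and -1.41 (0.0417). The Ddc difference was kept whichever array was left out, and that of Th was lost without slide 1 of Sir2KD1 (0.142) among others. Of 13 immune markers, the integrin Itgam was called at 1.34, and not without slide 1 (0.106). Of 10 markers of other islet endocrine cells and 20 mesenchymal markers limma called 0, with 3 in each at an unadjusted p under 0.05. Over all probes, 3897 of 23230 had such a p. The islet markers had the median of -0.37 given above. Of 24 liver secreted proteins, 6 were called on the minus side, the 5 Serpina1 genes and the retinol carrier Rbp4 (-2.52, -1.90 and -1.27, not called without slide 1 at an adjusted p of 0.148). Albumin (Alb, -0.19) and Apoa1 (-0.51) were not called, and the list median was -0.19. The part of other cell types in these values was not tested.

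**Figure D4:**
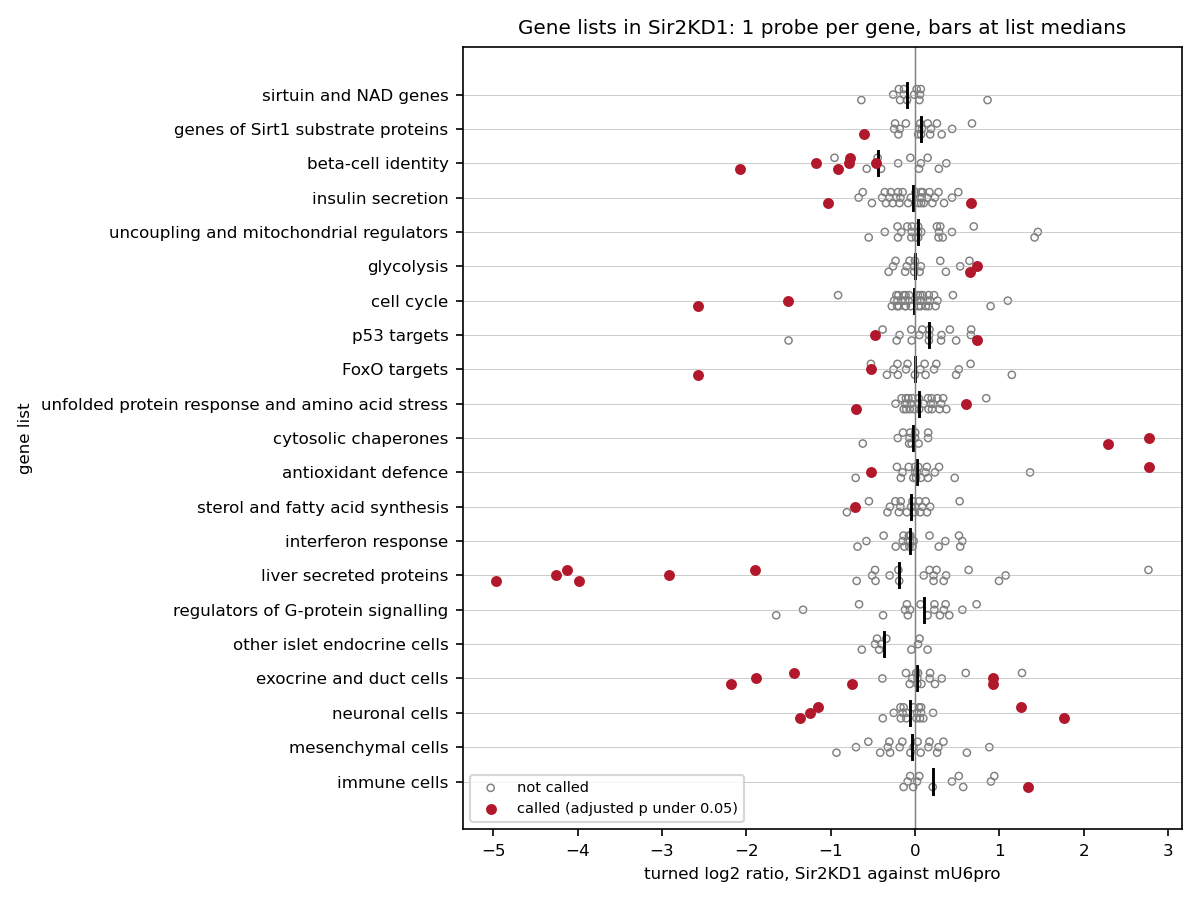
Turned log2 ratio in Sir2KD1 (horizontal axis) of every measured gene of 21 lists (vertical axis), the first probe of each gene; filled points were called at an adjusted p under 0.05, open points were not, and bars mark list medians. The beta-cell identity list has 6 filled points, all below 0, and its median is -0.44, next to -0.37 for other islet endocrine markers. With the last probe of each gene it is -0.17, above that list (-0.37) and the liver secreted proteins (-0.25).

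In windows of 30 consecutive measured genes, in the order of the mouse gene table, the median in Sir2KD1 ran from -0.32 to 0.27 over 14145 windows. The 1st and 99th percentiles of these medians were -0.20 and 0.20. Such a median cannot show a run as short as the 5 Serpina1 genes. The 2 windows that follow are the extremes of overlapping windows, picked by these same values, and 3.59% of all probes were called. The highest window, from 2410021H03Rik to Fam98a, had 22 of 30 genes above 0 and 2 called. The lowest, from 1700021F07Rik to Col9a3, had 11 above 0 and 4 called, and it lay at -0.22 in Sir2KD2.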

How the data were processed

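RNA of 4 MIN6-derived lines was compared with control RNA on 14 two-colour arrays. The deposited values are log2 ratios of the channels. Array software, background correction, normalization and dyes were not given in the sources used here. For each probe, values summed to 0 over 6 of the 7 knockdown arrays (Sir2KD1 slide 2 lay outside the sum), and likewise in the overexpression arrays, so they were centred per probe within each kind. Of the scale, centring and direction, the scale (log2) and centring were read from the values and the direction stays unknown. Array medians ran from -0.0347 to 0.0165. Depth does not apply to arrays, and their number limits the precision.

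Each value was turned by the channel the labels give for the line. The fit (lmFit and eBayes of limma 3.58.1, R 4.3.3) took in all 14 arrays. It had 1 coefficient for each line and a channel term for each kind, which leaves the fit independent of the centring. Slide values printed here keep it. Residual degrees of freedom were 8. p-values were adjusted by Benjamini-Hochberg over 23230 probes that had a value on 2 or more arrays in every line, which left out 2. A single gene symbol was listed for 16885 of the 23232 probes, several for 143 and none for 6204. Symbols were updated through Entrez identifiers. A set of 173 probes with a fixed ratio across the knockdown arrays (within 1 percentage point on 5 or more arrays, limits set after the values were seen) was kept in the fit. The fit was tested on simulated data.

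The members and lists were chosen with earlier results of these data known. Named were genes from probes with 1 symbol, values on all 3 Sir2KD1 arrays and no fixed ratio: the 12 per side with the largest ratio among those called with all 3 arrays on that side, the 12 per side with the largest called difference from Sir2KD2 among such calls not called there, probes called on opposite sides, list members called in Sir2KD1 and up to 3 others of each list, and Sirt1 to Sirt7 with Nampt. Sirt7 had no probe with a single symbol, so no value is given for it. Every other probe of the genes of the first 3 sets was reported too. A gene in these sets was named from its probe with the largest value, and a list gene was counted by its first probe. Promoters came from RefSeq (GRCm38.p6). A search of these promoters for short motifs is not reported here.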

Additional observations from a re-analysis of the deposited data

Results flagged for a closer look

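The difference between the knockdown lines, tested as a contrast in the limma fit, was called at an adjusted p under 0.05 for 40 of the genes and probes named. On the log2 scale of Sir2KD1 minus Sir2KD2, those on the minus side that kept the call whichever of the 14 arrays was left out were Tm4sf4 (-3.20), Dlk1 (-3.19), Mmd2 (-2.97), Eps8 (-2.94), Smim24 (-2.81), Cartpt (-2.69), Epcam (-2.64), Iyd (-2.56), Tspan2os (-2.36), Tmed6 (-2.22), Nrn1 (-2.14), Gab1 (-2.02), 4933429K18Rik (-1.88), Cdh1 (-1.70) and Ddc (-1.66). On the plus side they were Napsa (3.73), Sntb1 (2.06), Hspb8 (2.06), probe 21511 (2.03) and Mucl2 (1.83).

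The other 20 lost the call on leaving out at least 1 array. On the plus side these were Sfrp5 (2.83), 4930535L15Rik (2.61), Tgfbr2 (2.58), Kif6 (2.48), Ntf5 (2.46), Phip (2.39), Tcrb-V8.2 (2.17), Dcst1 (2.17), Ccdc71l (1.94), 1700029J07Rik (1.87), Ccng1 (1.39), Csn3 (0.95) and Tpi1 (0.93). On the minus side they were Ighm (-3.05), Gatm (-2.44), Ccl28 (-2.33), Dapk1 (-2.26), Cpb1 (-1.61), Th (-1.41) and Slc2a2 (-1.18). Genes were chosen for this comparison partly by the size of the difference, so the sizes are a description. With 3 arrays in Sir2KD1, single arrays were not tested as outliers. On the 7 knockdown arrays alone, 39 of the 40 differences lost their call and that of Smim24 was kept. With slide number as a replicate block, 23 of the 40 lost it.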

How the results depend on the processing

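The counts of probes called in Sir2KD1 (833), of those not called in Sir2KD2 with the difference called (111) and of differences called (160) were, in this order, 1867, 368 and 576 with no channel term, 1315, 217 and 322 with 1 channel term for both kinds, and 219, 1 and 1 on the 7 knockdown arrays alone. That last fit has fewer arrays, and the part of this in its lower counts was not tested. Leaving out each of the 14 arrays in turn gave 523 to 835, 58 to 185 and 86 to 248. Slide number as a replicate block gave 180, 25 and 37. Same-number deviations of the lines had r = -0.15, 0.06 and -0.58. The centring links slides 1 and 3 of Sir2KD1 with the Sir2KD2 slides, so these r values cannot tell whether slide numbers pair the samples. A minimum log2 ratio of 1 gave 447 calls, and an unadjusted p of at least 0.05 in Sir2KD2 gave 62. Median-centring, complete probes, robust eBayes and leaving out fixed-ratio probes kept the 3 counts within 1.5 times. So did 3 alternatives added after seeing the data. They were a channel term for each line (869, 127), centring within blocks of probe numbers (1100, 132) and leaving out block 28 (793, 103). Similar counts did not mean the same probes. With a channel term for each line, 666 of the 869 and 82 of the 127 were shared with the main fit. With centring within blocks, 806 of the 1100 and 102 of the 132 were.

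Of 78 named genes and probes called in Sir2KD1, 45 kept the call whichever array was left out, and none changed side under another fit or set of arrays. On the knockdown arrays alone 33 of the 78 lost the call, and 35 did under the replicate block. Line differences that were not called crossed 0 for Fnbp1l, Hnf4a, Rbl2, Asns and Rbp4, and the other probe of Hnf4a and of Ucn3 lay on the opposite side. The 24 genes with the largest ratios were all called in most alternatives; 21 were on the knockdown arrays alone, under the replicate block and without slide 1 of Sir2KD1, and 23 without slide 3. With the last probe of a gene in place of the first, the beta-cell list had 5 minus-side calls and 1 plus-side call. Signal over background is unknown, since the values are ratios.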
